A study of Mus musculus with 8 samples.

Results

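Regulators of G protein signalling (RGS) are proteins that switch off the signals of G protein-coupled receptors. A receptor bound by its ligand loads GTP onto a G protein alpha subunit, and an RGS protein speeds the hydrolysis of that GTP, so the signal ends sooner. Most small RGS proteins of the R4 subfamily act on alpha subunits of the Gi/o and Gq classes, through which vasoconstrictors, lysophospholipids and thrombin act on contractile cells. Rgs4 and Rgs5 are known in pericytes, the mural cells of small vessels, and hepatic stellate cells are the pericytes of the liver sinusoid.

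The genes described are Rgs1, Rgs2, Rgs3, Rgs4, Rgs5, Rgs10, Rgs16 and Rgs17. They were chosen by name, with earlier results of these data known. Each gene was read from the probe set with a single annotated gene symbol and the highest mean over all arrays. Of these 8 genes 7 were measured, among 19938 genes in all. The probe set annotation listed no entry for Rgs10, a member of the R12 subfamily, which was therefore not analysed here. A further 16 genes with an RGS name were set beside them, among them Rgs7bp and Rgs9bp, which encode anchors that bind RGS proteins.

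The cells were hepatic stellate cells isolated from mouse livers by density centrifugation and sorting on the autofluorescence of stored vitamin A and lysed directly after the sort. The control group of 4 arrays (replicates 1 to 4) came from Lhx2 f/f mice with no Cre, and the knockout group of 4 arrays (replicates 5 to 8) from Mx1Cre+ Lhx2 f/f mice. All mice had the C57BL/6J background, carried floxed Lhx2, a LIM homeobox transcription factor, and were given the interferon inducer poly(I:C) 3 times, with a gap of 2 weeks between this treatment and cell isolation. Mx1Cre is driven by an interferon-responsive promoter in many cell types, so loss of Lhx2 in stellate cells, loss in other cells and the presence of Cre cannot be told apart. The sources used here give no ages. Whether each array is a separate animal is not in the labels, and the p-values therefore cover only the variation among these arrays, possibly technical.

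Values are log2 expression levels normalized by the authors with the Robust Multichip Algorithm (RMA), which ran from 4.19 to 14.4. Levels of different probe sets are not comparable with each other. As a guide to unexpressed levels, the 95th percentile of the mean levels of 1194 olfactory and vomeronasal receptor genes was 6.77. Lhx2 lay between 11.88 and 12.07 in the control arrays and between 11.09 and 11.49 in the knockout arrays, without overlap. The floxed part of Lhx2 is not given, so this level need not measure the deletion. All 13 measured stellate cell markers were above the guide in at least 1 group. Their mean level lay between 12.89 and 12.96 in the control and between 12.68 and 12.69 in the knockout arrays. It was thus lower in every knockout array than in every control array (change -0.25).

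Of the 7 measured genes, Rgs4 and Rgs5 fell in the knockout, Rgs3 rose, and Rgs1, Rgs2, Rgs16 and Rgs17 did not pass the test. A change was called at an adjusted p under 0.05 in limma, with Benjamini-Hochberg adjustment over all genes. Of all genes tested, 7.38% were called, 3.76% higher and 3.63% lower. The control and knockout arrays of the 3 called genes did not overlap, as was the case for 12.7% of all genes (6.38% with the knockout higher, 6.32% with it lower). The median log2 change of the 7 genes was -0.06 and that of all genes -0.02. A lower level in sorted cells can come from fewer cells of a kind or from less RNA per cell, and array values cannot tell these apart.

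**Figure D1:**
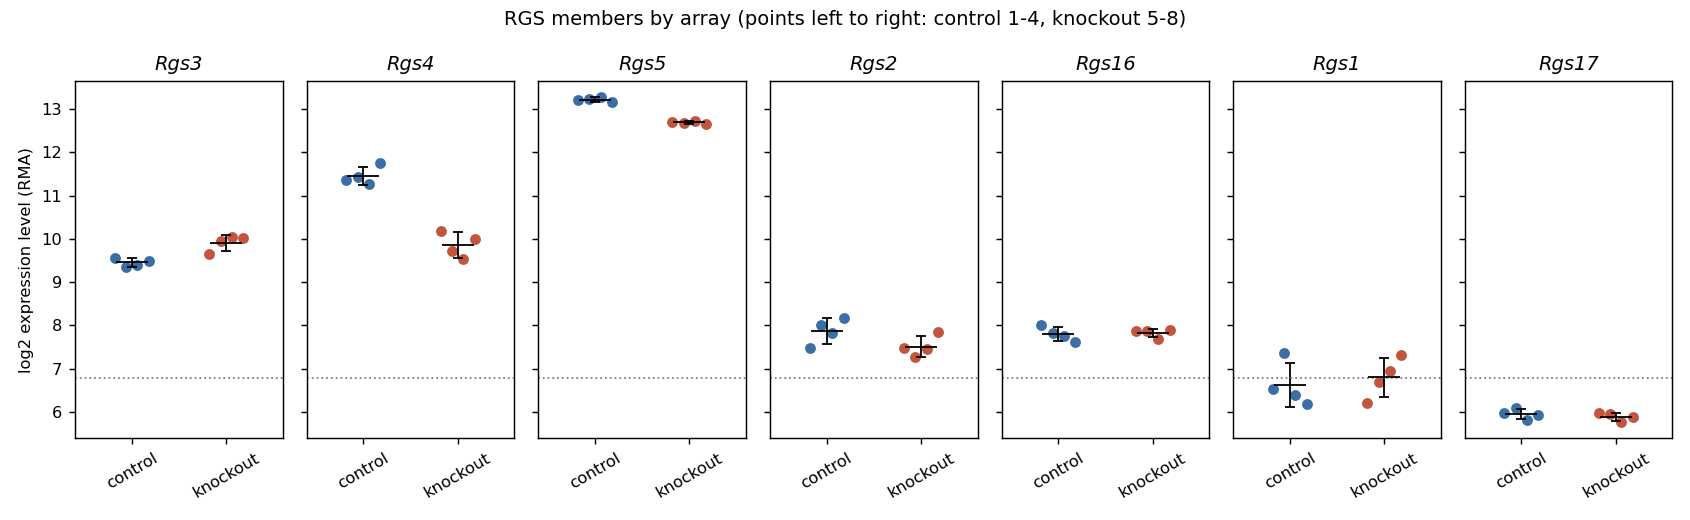
Log2 expression levels (RMA, vertical axis) of the 7 measured genes on each array, control replicates 1 to 4 in blue and knockout replicates 5 to 8 in red, with the group mean and SD (n = 4 each) in black; the dotted line is the receptor gene guide of 6.77. Rgs4 and Rgs5 are lower and Rgs3 is higher in every knockout array than in every control array, while the groups of Rgs2, Rgs16, Rgs1 and Rgs17 overlap.

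Rgs4 encodes a small R4 protein that limits Gi/o and Gq signalling and marks pericytes of several tissues. Its log2 level was 11.35, 11.43, 11.28 and 11.75 in control arrays 1 to 4, and 10.19, 9.71, 9.53 and 9.99 in knockout arrays 5 to 8. The highest knockout array was more than 1 log2 unit below the lowest control array. Its mean went from 11.45 ± 0.21 to 9.86 ± 0.29 (SD, n = 4 each), a log2 change of -1.60 (SE 0.15, 95% confidence interval -1.94 to -1.26, limma adjusted p = 0.000170). That left 33.0% of the control level, a 3.03-fold lower level. By size of fall it was number 22 of 19938 genes. An exact two-sided permutation test over all 70 assignments of the arrays gave p = 0.0286, and with groups of 4 no smaller p can be reached.

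Rgs5 encodes another small R4 protein, widely used as a pericyte marker. Its log2 level was 13.21, 13.24, 13.27 and 13.16 in control arrays 1 to 4, and 12.71, 12.69, 12.74 and 12.65 in knockout arrays 5 to 8. The arrays of each group lay close together and the groups were apart. The means were 13.22 ± 0.05 and 12.70 ± 0.04 (SD, n = 4 each), a log2 change of -0.52 (SE 0.05, 95% confidence interval -0.63 to -0.42, limma adjusted p = 0.000141). The knockout kept 69.5% of the control level of Rgs5, at levels near the top of the value range. Values that high may be compressed, so that a change reads smaller than it is, which was not tested. The exact two-sided permutation p was again 0.0286.

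Rgs4 fell further than Rgs5. The log2 level of Rgs4 minus that of Rgs5 within an array was -1.77 ± 0.25 in control arrays and -2.84 ± 0.31 in knockout arrays (SD, n = 4 each). The log2 changes thus differed by -1.07 (exact two-sided permutation p = 0.0286, the smallest possible, 1 pair compared). The pair was chosen with earlier results of these data known, which this p does not account for. Without control 1 and control 4 the difference was -0.94 with an exact permutation p of 0.0667, the smallest that groups of 2 and 4 allow. Compression of bright probe sets could bear on this difference, since Rgs5 lay nearer to the top of the range. Whether it did was not tested.

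Rgs4 and Rgs5 are direct neighbours on mouse chromosome 1 in the RefSeq gene table, with no other protein-coding gene between them. On the outer sides they are flanked by Ccdc190, beside Rgs4, and Nuf2, beside Rgs5. These flanking genes were chosen after the values of the RGS genes were seen. The log2 change was -0.27 for Ccdc190 (SE 0.09, limma adjusted p = 0.114) and -0.19 for Nuf2 (SE 0.11, limma adjusted p = 0.470). Neither passed the test, and each had group means under the guide of 6.77.

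The 250 bases before the start of both genes are shown because the genes fell together and are direct neighbours. They are RefSeq sequences of build GRCm38.p6, printed 5′ to 3′ on the strand of the gene, Rgs4 from the minus strand of chr1:169747643-169747892 and Rgs5 from the plus strand of chr1:169655251-169655500. The genes run toward each other, so these windows lie at the outer ends of the pair and not side by side. Capitals mark matches to any of 8 short motifs searched on both strands.
Rgs4: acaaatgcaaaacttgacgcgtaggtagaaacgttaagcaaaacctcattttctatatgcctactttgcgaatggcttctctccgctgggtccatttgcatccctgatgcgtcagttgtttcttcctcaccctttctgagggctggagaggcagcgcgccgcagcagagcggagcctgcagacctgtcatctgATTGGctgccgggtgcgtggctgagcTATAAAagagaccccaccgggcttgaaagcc
Rgs5: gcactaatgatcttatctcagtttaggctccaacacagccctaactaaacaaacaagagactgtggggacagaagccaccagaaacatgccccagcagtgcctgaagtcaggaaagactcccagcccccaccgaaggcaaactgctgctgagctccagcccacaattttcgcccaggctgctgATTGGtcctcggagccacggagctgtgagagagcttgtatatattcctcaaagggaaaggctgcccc
Motifs were searched by their letters. TAATTA is a core recognised by many homeodomain proteins, and a variant of that core that was also searched is TAATTG. The element bound by the TATA-binding protein was searched as TATAAA. For factors of the Sp1 type the letters searched were GGGCGG. The element of nuclear factor Y was searched as CCAAT. An E-box was searched with the letters CAGCTG. The cyclic AMP response element was searched as TGACGTCA. An element of BMP-activated SMAD proteins was searched as GGCGCC. None of the marked matches overlapped another. The window of Rgs4 held TATAAA, from 31 to 26 bases before the start, and CCAAT as its reverse complement ATTGG, from 57 to 53 bases before it. The window of Rgs5 held CCAAT, also as ATTGG, from 67 to 63 bases before its start. It held no TATAAA, but other spellings of that element were not searched, so a difference between the genes in this element cannot be read from this. Of 32851 promoter windows of this length 33.8% held CCAAT and 12.4% held TATAAA. Neither window held the letters TAATTA, present in 4.84% of all windows, or the variant TAATTG, present in 7.17%. GC made up 53.6% of each of these windows, against 48.4% and 56.8% of the 2 windows of Rgs3, 66.4% of that of Rgs16, 72.4% of those of Rgs2 and Rgs17, 76.4% of that of Rgs10 and a median of 52.4% over all windows.

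Rgs3 encodes an R4 protein with several forms, some of which carry extra domains beside the RGS domain. On its brighter probe set the log2 level was 9.56, 9.35, 9.40 and 9.50 in control arrays 1 to 4, and 9.64, 9.95, 10.03 and 10.01 in knockout arrays 5 to 8. Knockout 5 lay just above control 1, and the other knockout arrays were clearly higher. The means were 9.45 ± 0.09 and 9.91 ± 0.18 (SD, n = 4 each), a rise of 0.46 (SE 0.09, limma adjusted p = 0.0154), or 1.37-fold. Without control 2 or without knockout 6 the call was lost, with a limma adjusted p of up to 0.0535, although the change stayed between 0.42 and 0.54 when any 1 array was left out. It was lost as well without control 1 and control 4 together, the control arrays with the most hepatocyte and the most endothelial marker signal (change 0.53, SE 0.12, limma adjusted p = 0.0529), while Rgs4 and Rgs5 kept theirs (limma adjusted p = 0.00380 and 0.00291).

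A second probe set of Rgs3 did not show the rise. Its log2 level was 7.83, 7.77, 7.54 and 7.86 in the control and 7.54, 7.61, 7.67 and 7.75 in the knockout arrays, with overlapping groups and a change of -0.10 (SE 0.08, limma adjusted p = 0.627 over 21789 probe sets). The mean of the 2 probe sets changed by 0.18 (SE 0.08, limma adjusted p = 0.294), so the call of Rgs3 rests on the brighter probe set. The annotation lists 12 accessions for the brighter and 11 for the dimmer probe set, of which 4 are shared. Whether they read different transcripts was not tested.

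**Figure D2:**
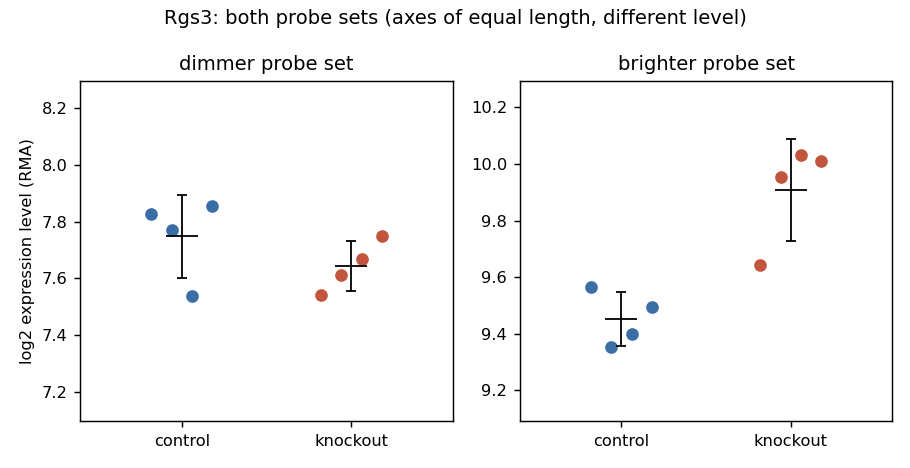
Log2 levels (RMA, vertical axes of equal length) of the 2 probe sets of Rgs3 on 4 control arrays (blue) and 4 knockout arrays (red), with group mean and SD in black. The brighter probe set is higher in the knockout (9.91 against 9.45), and the dimmer one overlaps between the groups (7.64 against 7.75).

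Rgs2 encodes an R4 protein that prefers Gq and whose mRNA is quickly induced by stimuli. Its log2 level was 7.47, 8.01, 7.82 and 8.16 in the control arrays and 7.47, 7.26, 7.46 and 7.85 in the knockout arrays. The groups overlapped, with control 1 as low as the knockout arrays and knockout 8 among the controls. The change was -0.36 (SE 0.16, 95% confidence interval -0.72 to 0.0028, limma adjusted p = 0.292). Control 4, control 2 and knockout 8, the arrays with the highest Rgs2, were also those with the highest mean log2 level of 16 immediate-early genes (12.42, 12.34 and 12.09, against 11.41 to 11.98 in the other 5 arrays). The same 3 arrays had the highest mean level of 12 sinusoidal endothelial markers (11.17, 10.67 and 9.91, against 8.63 to 9.58). The change of Rgs2 was -0.11 (SE 0.17, limma adjusted p = 0.915) with the immediate-early mean as a covariate and -0.19 (SE 0.11, limma adjusted p = 0.459) with the endothelial mean. The part of either in the level of Rgs2 was not tested further.

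Rgs16 encodes an R4 protein that in liver is known to follow feeding and fasting. Its log2 level was 8.01, 7.82, 7.76 and 7.60 in the control arrays and 7.87, 7.86, 7.69 and 7.89 in the knockout arrays, with full overlap. The change was 0.03 (SE 0.09, 95% confidence interval -0.17 to 0.23, limma adjusted p = 0.933), an interval that leaves out a fall of the size seen for Rgs4 or Rgs5.

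Rgs1, a regulator best known from lymphocytes and other leukocytes, varied most within the groups. Its log2 level was 6.54, 7.36, 6.39 and 6.19 in the control and 6.22, 6.70, 6.95 and 7.31 in the knockout arrays, so that control 2, knockout 8 and knockout 7 stood above the guide of 6.77 and the other arrays did not. The change was 0.17 (SE 0.28, 95% confidence interval -0.46 to 0.81, limma adjusted p = 0.865). Control 2 also had the highest mean level of 12 macrophage and Kupffer cell markers (8.34), followed by knockout 7 (7.91), control 1 (7.85) and knockout 8 (7.83). Control 1, with Rgs1 under the guide, was thus above knockout 8 in these markers. Of 10 measured lymphocyte markers 1 was above the guide, and their mean lay between 5.97 and 6.17 on all arrays. The part of these cells in the level of Rgs1 was not tested.

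Rgs17, an RZ protein that acts on Gi and Gz, lay between 5.81 and 6.08 in the control and between 5.77 and 5.96 in the knockout arrays. All arrays were under the guide, so no level above that of unexpressed genes was detectable, and the change was -0.06 (SE 0.07, limma adjusted p = 0.809).

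Among the other RGS genes, 2 rose and 2 fell of 16 measured, with a median change of -0.01. Only 9 of these 16 were above the guide in at least 1 group. For the others no level above that of unexpressed genes was detectable, and the median includes them. All of the RGS-named genes together held 3 risen and 4 fallen of 23 measured, against 3.76% and 3.63% of all genes. Here 15 of the 23 were above the guide in at least 1 group. The called genes came from several subfamilies, a grouping made after their values were seen: 1 risen and 2 fallen of 10 R4 genes, 1 and 2 of 4 R7 genes, 1 and 0 of 3 RZ genes, and none of 2 measured R12 genes.

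The R7 proteins bind the beta subunit Gnb5 in place of a gamma subunit and are best known from neurons and the retina. Rgs9 had log2 levels of 10.12, 10.29, 10.42 and 10.29 in the control and 9.78, 9.65, 9.81 and 9.54 in the knockout arrays, and fell by 0.58 (SE 0.08, limma adjusted p = 0.00212). Rgs7 fell by 0.46 (SE 0.10, limma adjusted p = 0.0168), and its groups, from 8.49 to 8.86 and from 8.02 to 8.34, did not overlap. Rgs6 rose by 0.40 (SE 0.07, limma adjusted p = 0.00658) from 6.61 ± 0.10 to 7.01 ± 0.09 (SD, n = 4 each), close to the guide, so the size of its change is uncertain. Their partners did not pass, with changes of -0.04 for Gnb5 and -0.05 for Rgs9bp, the anchor of Rgs9. The change was -0.19 for Rgs7bp, a membrane anchor of R7 proteins. Both group means of Rgs7bp (6.55 in the control, 6.37 in the knockout) were under the guide, so whether it changed cannot be read. Rgs19, of the RZ subfamily, rose by 0.28 (SE 0.07, limma adjusted p = 0.0330), a call lost when any of 6 arrays (control 1, 2 or 4, knockout 5, 6 or 7) was left out, with a limma adjusted p of up to 0.103. Rgs7 lost its call without knockout 5 or 6 (up to 0.0534). Rgs12 and Rgs14, the measured R12 genes, had changes of 0.14 and 0.05 and did not pass.

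**Figure D3:**
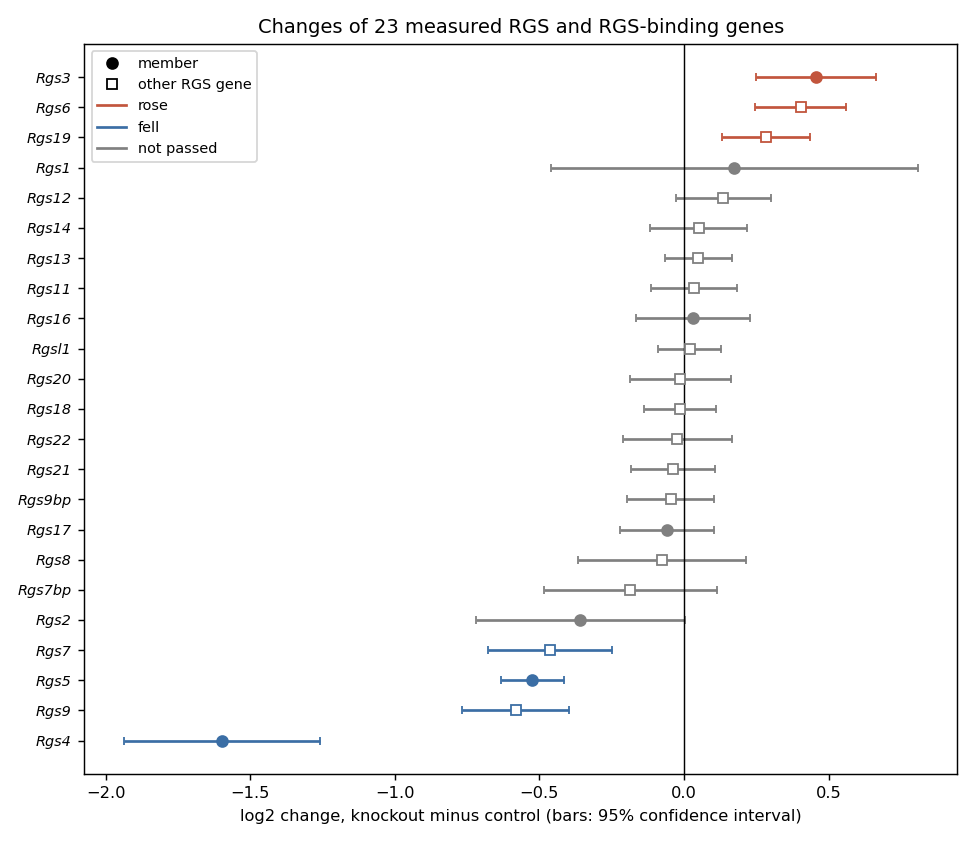
Log2 change, knockout minus control (horizontal axis), of 23 measured RGS-named genes with 95% confidence intervals from limma; filled circles are the 7 genes described and open squares the other 16, red for risen, blue for fallen and grey for not passed. Rgs4 stands apart at -1.60, with Rgs9, Rgs5 and Rgs7 between -0.58 and -0.46 and Rgs3, Rgs6 and Rgs19 above 0.

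The levels of other cells moved in part with the groups, and their values are set beside the changes of Rgs4, Rgs5 and Rgs3. All 12 sinusoidal endothelial markers had a lower mean in the knockout, of which Clec4g passed the test. Their mean log2 level ran from 8.66 to 11.17 in the control and from 8.63 to 9.91 in the knockout arrays, so the groups overlapped. With it as a covariate, the change was -1.54 for Rgs4 (SE 0.16, limma adjusted p = 0.000685), -0.54 for Rgs5 (SE 0.06, limma adjusted p = 0.000543) and 0.47 for Rgs3 (SE 0.10, limma adjusted p = 0.0301). The 16 immediate-early genes all had lower means in the knockout, of which 3 fell, against 3.63% of all genes. The mean of these 16 ran from 11.91 to 12.42 in the control and from 11.41 to 12.09 in the knockout arrays. With that as a covariate Rgs4 had a change of -1.35 (SE 0.15, limma adjusted p = 0.00103), Rgs5 of -0.57 (limma adjusted p = 0.00108), and Rgs3 of 0.43 with its call lost (limma adjusted p = 0.0988). Hepatocyte markers ran from 8.96 to 11.09 in the control and from 9.34 to 10.85 in the knockout arrays, and as a covariate left all 3 calls in place.

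**Figure D4:**
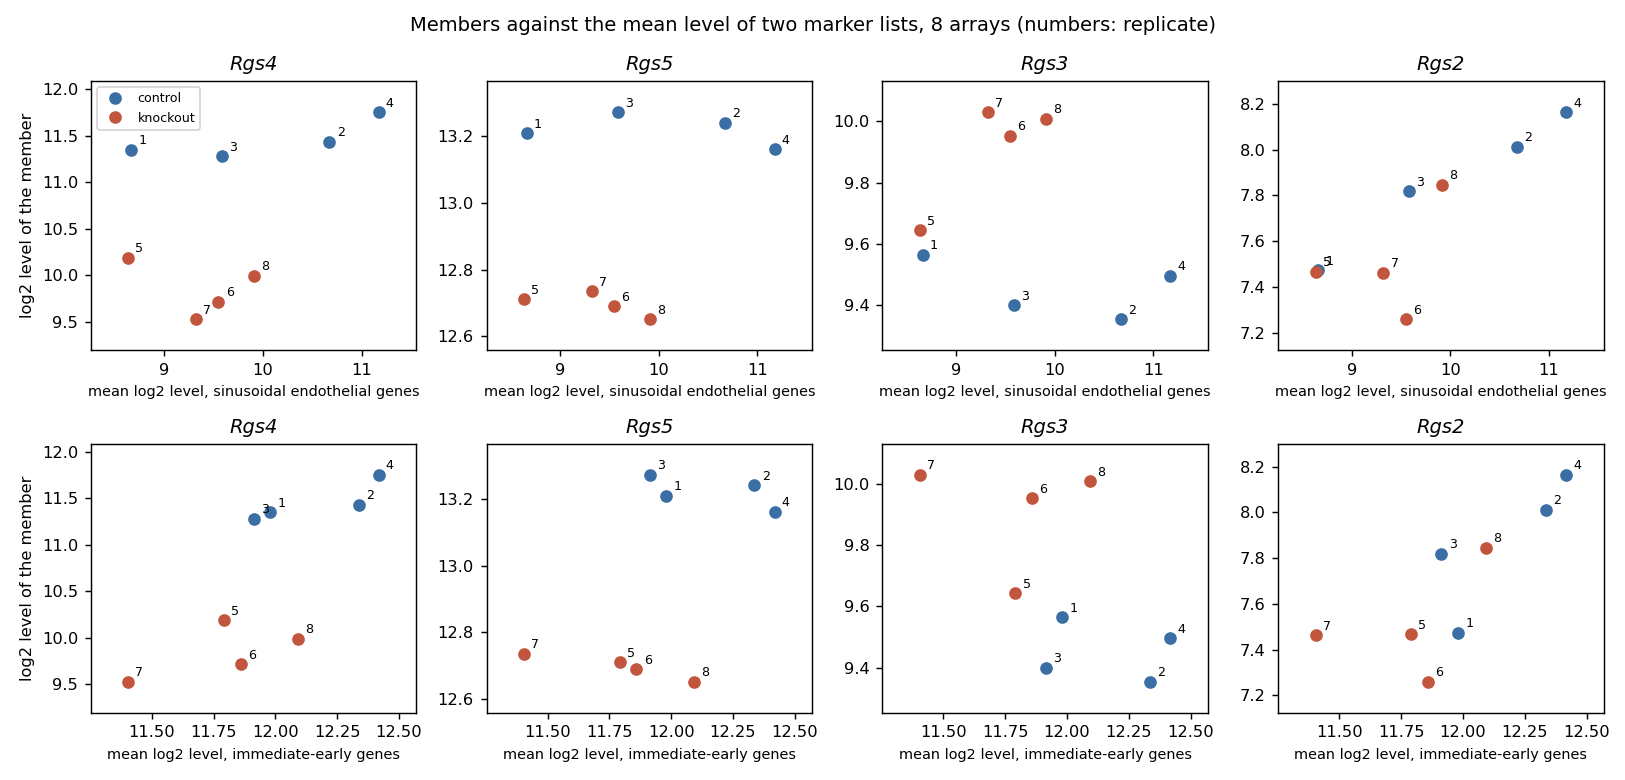
Log2 level of Rgs4, Rgs5, Rgs3 and Rgs2 (vertical axes) against the mean log2 level of 12 sinusoidal endothelial markers (upper row) and 16 immediate-early genes (lower row), 1 point per array with its replicate number, control in blue and knockout in red. Rgs4 and Rgs5 are lower in all 4 knockout arrays than in all 4 control arrays, while Rgs2 is highest on control 4, control 2 and knockout 8, the arrays with the highest levels of both marker lists.

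Other markers of pericytes and vascular smooth muscle went both ways. Of 14 measured, neither Rgs gene counted among them, 3 fell, 3 rose and 8 did not pass, with a median change of -0.11. Among all genes 3.63% fell and 3.76% rose. By the sign of the change 4 of the 14 were higher in the knockout and the rest lower. The groups did not overlap for 5 that were lower and 3 that were higher, against 6.32% and 6.38% of all genes. The fallen genes were the adhesion molecule Mcam (-1.09, SE 0.08), Ndufa4l2, a mitochondrial protein of pericytes (-0.71, SE 0.13), and Kcnj8, a channel of ATP-sensitive potassium currents (-0.39, SE 0.07). The risen ones were the aminopeptidase Anpep (1.12, SE 0.13), the actin-binding protein Tagln (0.77, SE 0.13) and the receptor Notch3 (0.57, SE 0.14). The mean level of the list overlapped between the groups, from 9.80 to 9.96 in the control and from 9.74 to 9.94 in the knockout arrays. Of the 13 stellate cell markers 5 fell and 0 rose, where 3.63% of all genes fell. The fallen ones were Gfap (-1.48), Tcf21 (-0.49), Hand2 (-0.48), Hgf (-0.37) and Reln (-0.26), and 8 did not pass. Of 11 portal fibroblast markers 5 rose and 0 fell, where 3.76% of all genes rose. The mean level of these markers lay between 7.75 and 7.94 in the control and between 8.61 and 8.81 in the knockout arrays. Of the remaining lists, macrophage and Kupffer markers had 1 fallen of 12, neutrophil markers 0 called of 10, cholangiocyte markers 0 of 6, and erythroid and platelet markers 1 risen and 1 fallen of 6. The part of these cells in the changes of the RGS genes was not tested.

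The genes whose profile over the 8 arrays was most like that of a called gene were sought among 12953 named genes above the guide, by Pearson correlation. The correlation is set mainly by the difference between the groups and is given as a description. For Rgs4 they were Icam2, Mapt, Tead4 and Itga9, with r from 0.976 to 0.983 over 8 arrays and log2 changes of -0.27, -0.95, -0.68 and -0.42. For Rgs5 they were Steap4, Acvr1c, Map2 and Tnfrsf21, with r from 0.992 to 0.996 and changes of -0.84, -1.83, -0.84 and -1.16. For Rgs3 they were Inhba, Fzd8, Mid1ip1 and Cxxc5, with r from 0.966 to 0.985 and changes of 0.61, 0.39, 0.73 and 0.31. The change of Mid1ip1 was 0.36 with the probe sets of the gene averaged. Fzd8 and Cxxc5 lost their call without any 1 of 6 arrays (limma adjusted p up to 0.135 and 0.137). No gene was on more than 1 of these lists.

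Of 12 measured G protein alpha subunits 1 rose and 2 fell, against 3.76% and 3.63% of all genes. They include the Gi/o and Gq classes, on which most small R4 proteins act. Gnao1, the alpha subunit of Go, rose from 9.08 ± 0.10 to 9.73 ± 0.05 (SD, n = 4 each), a change of 0.65 (SE 0.06, limma adjusted p = 0.000190). Gnai2 fell by 0.23 (SE 0.05, limma adjusted p = 0.0293), a call lost without any 1 of 6 arrays (control 1, 3 or 4, knockout 5, 6 or 8; adjusted p up to 0.0993). Gnai1 had a change of 0.52 (SE 0.17) that did not pass (limma adjusted p = 0.129) except without knockout 8 (0.67, limma adjusted p = 0.0240), and Gnai3 and Gnaz had changes of -0.01 and -0.09. Of the 4 Gq-class subunits 0 passed the test in limma, nor did any at an unadjusted p under 0.05, which 17.5% of all genes had, with changes from -0.16 (Gna14) to -0.02; Gna11 and Gnaq stood at -0.09 and -0.11. Gna13 fell by 0.21 (limma adjusted p = 0.0447), a call lost without any array except control 3 (adjusted p up to 0.135). Gna12 and Gnal had changes of -0.10 and -0.04. Both group means of Gnal (5.85 in the control, 5.81 in the knockout) were under the guide.

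Of 17 beta and gamma subunits 1 fell, Gng2, by 0.53 (SE 0.11, limma adjusted p = 0.0200), and 16 did not pass, among them Gnb1 (-0.09), Gng12 (0.01) and Gnb2 (0.02). The call of Gng2 was lost without knockout 5, 6 or 8 (adjusted p up to 0.0639). Among 20 measured effectors, the enzymes and channels that G proteins act on directly or further downstream, 4 rose and 4 fell. The share called of all genes was 7.38%. The phospholipases of the Gq pathway went both ways: Plcb1 rose by 0.57 (SE 0.13), Plcb4 fell by 0.49 (SE 0.12) and Plcb2 fell by 0.40 (SE 0.08), while Plcb3 had a change of -0.04. So did the adenylyl cyclases, with Adcy2 and Adcy6 risen by 0.46 and 0.39 and Adcy5 fallen by 0.32. The calls of Plcb1 and Plcb4 were lost without any 1 of 6 and of 7 arrays, all but control 3 and knockout 5 for Plcb1 and all but control 1 for Plcb4 (adjusted p up to 0.0877 and 0.126), and that of Adcy6 without control 2, knockout 6 or knockout 7 (up to 0.0601). Plcb2, Adcy2 and Adcy5 lost their calls without control 1 and control 4 together (limma adjusted p = 0.117, 0.0599 and 0.135). With the immediate-early mean as a covariate they lost them too (limma adjusted p = 0.0777, 0.0915 and 0.130). Prkacb and Arhgef12 had changes of -0.08 and 0.00.

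Receptors that couple to Gi or Gq in stellate cells or pericytes had 3 risen and 2 fallen of 23 measured, with a median change of -0.06. The shares of all genes were 3.76% risen and 3.63% fallen. Lpar1, a lysophosphatidic acid receptor, rose by 0.54 (SE 0.09, limma adjusted p = 0.00722), Ptger3, a prostaglandin E receptor, by 0.46 (SE 0.11) and Ednrb, the endothelin B receptor, by 0.35 (SE 0.05, limma adjusted p = 0.00240). P2ry1, a receptor of ADP, fell by 0.62 (SE 0.12, limma adjusted p = 0.0128) and Adra1b, an alpha1 adrenergic receptor, by 0.43 (SE 0.11). Ptger3 and Adra1b each lost their call without any 1 of 6 arrays, all but control 3 and knockout 7 for Ptger3 and all but control 2 and knockout 7 for Adra1b (adjusted p up to 0.0875 and 0.135). Lpar1 and P2ry1 lost their calls without control 1 and control 4 together (limma adjusted p = 0.0554 and 0.1045). Agtr1a, S1pr3 and F2r, the receptors of angiotensin, sphingosine-1-phosphate and thrombin, had changes of -0.06, -0.15 and -0.18 and did not pass. S1pr3 and F2r did pass with trend and robust fitting (limma adjusted p = 0.0410 and 0.0496), and F2r with array weights (0.0458).

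Rgs4, Rgs5 and Rgs16 proteins are known to be degraded through the cysteine exposed at their amino terminus, by the N-degron pathway. Of 6 measured genes of that pathway 0 passed the test in limma, and 1, the cysteine dioxygenase Ado, had an unadjusted p under 0.05 (change -0.22, SE 0.09, limma adjusted p = 0.237). That share is near the 17.5% of all genes with such a p. The other changes included -0.13 for Ubr1 and -0.10 for Ubr2, ubiquitin ligases, and -0.11 for Metap1, a methionine aminopeptidase. Protein levels were not measured.

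**Figure D5:**
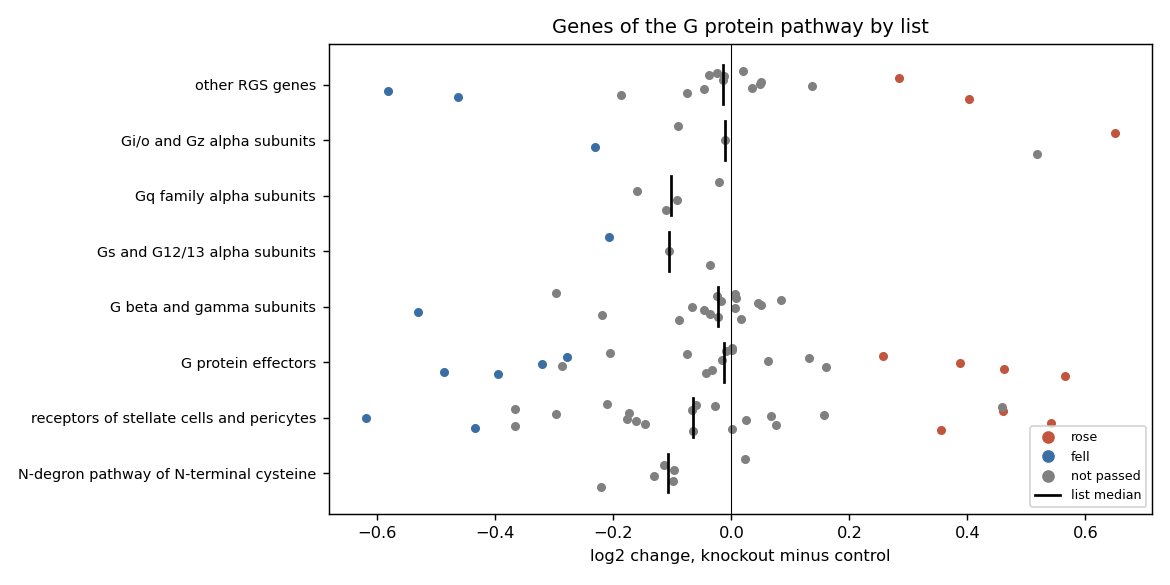
Log2 change, knockout minus control (horizontal axis), of each measured gene of 8 lists of the G protein pathway, with red for risen, blue for fallen and grey for not passed genes and a black line at each list's median. Every list median lies between -0.11 and -0.01. The lists of other RGS genes, Gi/o and Gz alpha subunits, effectors and receptors hold genes called in both directions.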

How the data were processed

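The deposited values are log2 expression levels, 1 per probe set and array, which the authors normalized with the Robust Multichip Algorithm (RMA), per the submitters' processing notes and the label protocol; the sources used here give no version, annotation or scan batch. RNA input was 150 ng per sample, per the labels' protocols. Of 35556 probe sets, 21789 had 1 gene symbol, 1621 several and 12146 none here; the probe set with the highest mean stood for a gene. Symbols were checked by gene identifier against a RefSeq table (GRCm38.p6), where 21698 matched and 0 changed.

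Groups came from the sample titles. Knockout minus control was fitted over all genes with lmFit and eBayes of limma 3.58.1 (R 4.3.3), two-sided, adjusted over all 19938 genes. The step was tested on simulated data. Members, lists and tests were chosen with earlier results of these data known. The genes named are the members, Lhx2, called genes of each pathway list (up to 6 by size) with up to 3 more by level, the 4 genes most like each called member, and further marker, partner and flanking genes chosen after their values were seen. Number of arrays limits the precision.

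Alternatives were median centring, quantile normalization, 2 filters on dim genes, eBayes with trend and robust fitting, array weights, other probe set rules, stricter thresholds and leaving out each array. Marker levels as covariates, and leaving out control 1 and control 4 together, were added after the data were seen. Promoter windows came from RefSeq (GRCm38.p6), which held 7 of the 8 members.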

Additional observations from a re-analysis of the deposited data

Results flagged for a closer look

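Within groups of 4 arrays, 7 values of genes named in the report lay far from the other 3 of their group by Dixon's ratio at its 95% critical value; about 1 in 20 groups is expected to do so by chance, and 130 groups were examined. Rgs16 was 7.69 on knockout 7, against 7.86 to 7.89 on the other knockout arrays. Rgs9bp was 7.55 on control 1, against 7.35 to 7.38. Gnaz was 7.01 on control 4, against 7.11 to 7.12. Gnai3 was 10.89 on knockout 6, against 10.65 to 10.69. Gnb2 was 11.65 on knockout 5, against 11.78 to 11.79. Icam2 was 7.62 on knockout 7, against 7.70 to 7.71. Tead4 was 7.92 on knockout 5, against 7.83 to 7.85. No array of Rgs3, Rgs4 or Rgs5 was among them.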

How the results depend on the processing

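Rgs4 and Rgs5 were called as lower under every alternative run except a threshold of 1.5-fold, which 1 (Rgs4) passed; their changes were -1.71 to -1.49 and -0.54 to -0.51 when 1 array was left out. The number of risen members went from 1 to 0 (Rgs3) with probe sets averaged per gene, at an adjusted p under 0.01, with the 1.5-fold threshold, without control 1 and control 4 together and with the immediate-early level as a covariate; it ran from 0 to 1, and the fallen from 2 to 2, when 1 array was left out. Rgs4 minus Rgs5 ran from -1.18 to -0.95 when 1 array was left out, and was -0.94 without control 1 and control 4. Over all genes, 749 rose and 723 fell; 386 and 389 did at an adjusted p under 0.01, 284 and 239 at 1.5-fold, 371 and 405 without control 1 and control 4, and 376 rose with the immediate-early covariate. When 1 array was left out, 502 to 790 rose and 487 to 677 fell. Stricter thresholds lower these counts by construction; for the other settings the cause was not tested.

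Of 35 called genes followed across the settings, median centring lost 6, among them Gnai2 (limma adjusted p = 0.0525), Gna13 (0.0599), Plcb4 (0.0557) and Adra1b (0.0556), with Fzd8 and Cxxc5. Cxxc5 was lost with quantile normalization too. Gna13 was lost under both filters on dim genes (0.0526 and 0.0512), and Rgs19 with trend and robust fitting (0.0524), a setting under which S1pr3 and F2r gained a call. The endothelial covariate lost 5, the hepatocyte covariate 1 (Gna13), and the immediate-early covariate 16, Rgs6 (0.0674) among them. Leaving out control 1 and control 4 together lost 16, with Rgs7 (0.115) among them.

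Some genes that passed in no direction changed sign. Without control 1 and control 4 the change was -0.0846 for Rgs1, 0.00853 for Rgs9bp, -0.0264 for Gnb2 and -0.0676 for Arhgef12. With the endothelial covariate it was -0.0366 for Rgs16, 0.0259 for Gnai3 and -0.00378 for Gng12, and with the hepatocyte covariate -0.00687 for Arhgef12. With the immediate-early covariate it was 0.0225 for Rgs17, 0.0170 for Gnai3, -0.0235 for Gng12 and 0.000165 for Ubr2. Quantile normalization gave -0.00771 for Gng12, and array weights 0.00104 for Gnai3. When 1 array was left out, the change ran from -0.0346 to 0.101 for Rgs16, -0.00053 to 0.106 for Rgs14, -0.0861 to 0.000404 for Rgs9bp, -0.0658 to 0.0218 for Gnai3, -0.00528 to 0.0230 for Gng12, -0.0205 to 0.0487 for Gnb2, -0.0574 to 0.0374 for Arhgef12 and -0.0640 to 0.00111 for Plcb3. No paired analysis was possible because the groups share no replicate numbers.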
